A study of Mus musculus with 6 samples.

Results

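The 6 genes described here encode subunits of the phagocyte NADPH oxidase: Cyba, Cybb, Ncf1, Ncf4, Rac1 and Rac2. They were chosen by symbol from the 54532 gene rows of a count table, and all 6 passed the filter on low counts, which left 13444 genes to test. RNA sequencing was done on 32D cells, a mouse myeloblast-like line kept in medium with 10% serum and 5 ng/ml mouse interleukin-3. Both groups had been transduced with a retrovirus that carries human U2AF1, a splicing factor that reads the 3' end of introns, together with GFP. The WT group received the wild-type protein and the S34F group the substitution found in myeloid malignancies, with 3 libraries each. The mouse U2af1 gene remained in both groups, the construct is driven by the retroviral vector in 1 cell line, and the labels do not say whether the libraries of a group came from separate transductions or cultures. Gene counts do not show which U2AF1 allele a library carries, so they do not check these labels. The p-values rest on the spread among these 6 libraries, part of which may be technical. By its title the series is about a defect in DNA repair and oxidative stress. Values per library are given in the order of replicates 1, 2 and 3.

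The oxidase transfers electrons from NADPH across a membrane to oxygen and so makes superoxide. Its core is flavocytochrome b558, made of the catalytic chain gp91phox (Nox2, from Cybb) and the smaller chain p22phox (from Cyba), which stabilise each other in phagocytes. The organiser p47phox (from Ncf1) and p40phox (from Ncf4) are among the subunits that stay in the cytosol of resting cells. On activation p47phox is phosphorylated and docks on p22phox, p40phox binds phosphatidylinositol 3-phosphate on phagosomes, and GTP-loaded Rac joins the complex. Neutrophils and macrophages use it to kill microbes, and inherited loss of CYBB, CYBA or NCF1 causes chronic granulomatous disease in people.

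Libraries held between 16509899 and 19129250 counts, so that 1 count equalled 0.0520 to 0.0608 CPM, counts scaled to library size with TMM factors. WT replicates 2 and 3 were by far the closest pair, with a biological coefficient of variation of 3.16%, where the remaining pairs of 1 group had 16.5% to 21.5%. Whether these 2 libraries came from separate cultures is not stated, so WT SDs and p-values with n = 3 may understate the spread between cultures. With the 2 summed into 1 library, 20 genes passed instead of 293, and 0 of the 6 subunit genes instead of 2. The label of the cells was checked with 11 genes of myeloid progenitors, of which 8 could be tested and 0 passed (edgeR; 2 at an unadjusted p under 0.05, DESeq2 2, limma-voom 0). Their summed level was 1543 to 1871 CPM in S34F and 1273 to 1509 CPM in WT, with Ptprc, Csf2rb and Ctsg the most abundant. Kit, Cd34 and Elane, which also mark such progenitors, had less than 0.5 CPM in each library. Of the B cell markers 0 of 6 had enough counts to test, and of the T cell markers 1 of 7. Of 10 erythroid and megakaryocyte markers 6 could be tested and 0 passed (edgeR; 2 at an unadjusted p under 0.05, DESeq2 2, limma-voom 1). They summed to 749 to 875 CPM in S34F and 587 to 618 CPM in WT, nearly all of it Itga2b. Of 8 mast cell and eosinophil markers 1 could be tested, with summed levels of 3.76 to 8.24 CPM in S34F and 1.64 to 5.71 CPM in WT.

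Of the 6 subunit genes, Cyba and Ncf4 rose in S34F cells, none fell, and Cybb, Ncf1, Rac1 and Rac2 did not pass (edgeR's quasi-likelihood test, p adjusted by Benjamini-Hochberg over all genes tested and under 0.05). Over all genes tested 1.58% rose and 0.595% fell, 2.18% together. The S34F libraries all lay above the WT libraries for Cyba and Ncf4 and overlapped them for the other 4, where 14.0% of all genes tested had all S34F libraries above and 27.1% had them on one side or the other. At an unadjusted p under 0.05 there were 3 of the 6, with Cybb as the third, against 22.0% of all genes. The median log2 fold change of the 6 genes was 0.55, against 0.00 over all genes tested, and 5 of the 6 were positive, against 50.1% of all genes.

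**Figure D1:**
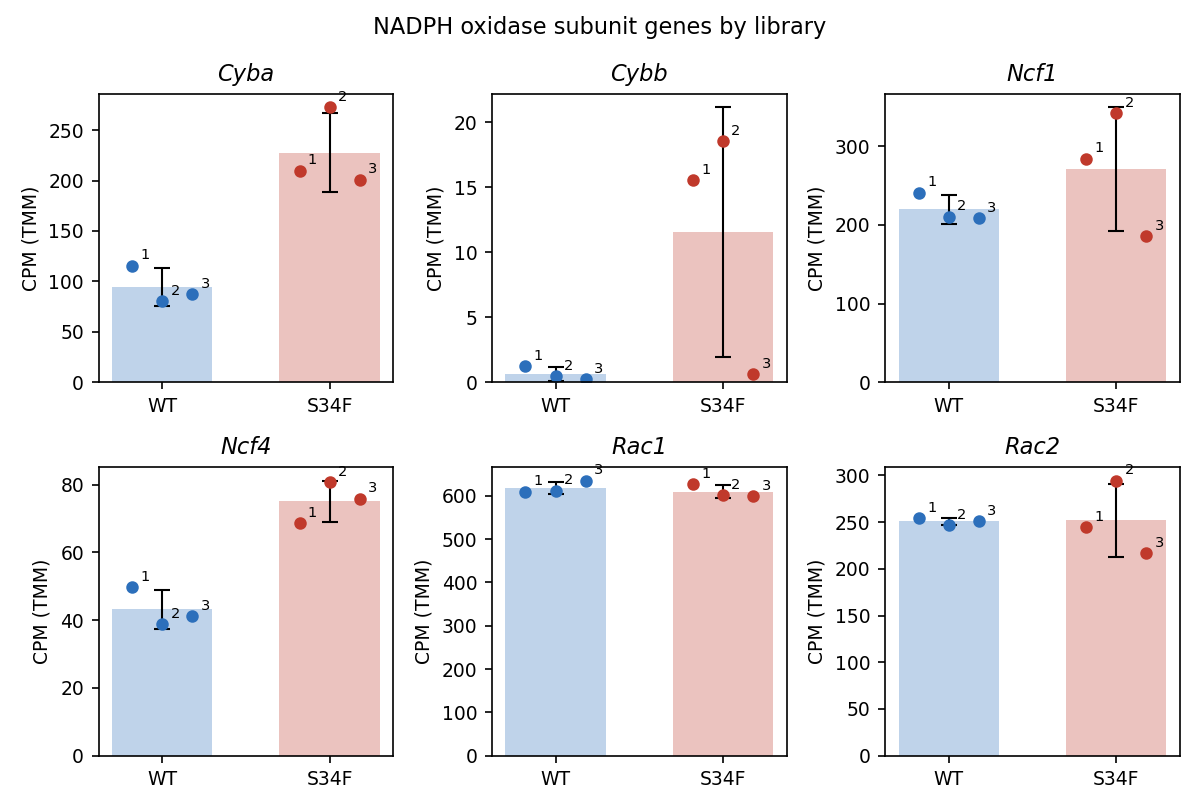
TMM-scaled CPM of the 6 subunit genes (y axis from 0) in WT (blue) and S34F (red) libraries; points are libraries with their replicate number, bars group means and whiskers the SD of 3 libraries. The groups are apart for Cyba and Ncf4, S34F replicate 3 stays at the WT level for Cybb, and Rac1 lies between 599.7 and 635 CPM in each library.

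**Figure D2:**
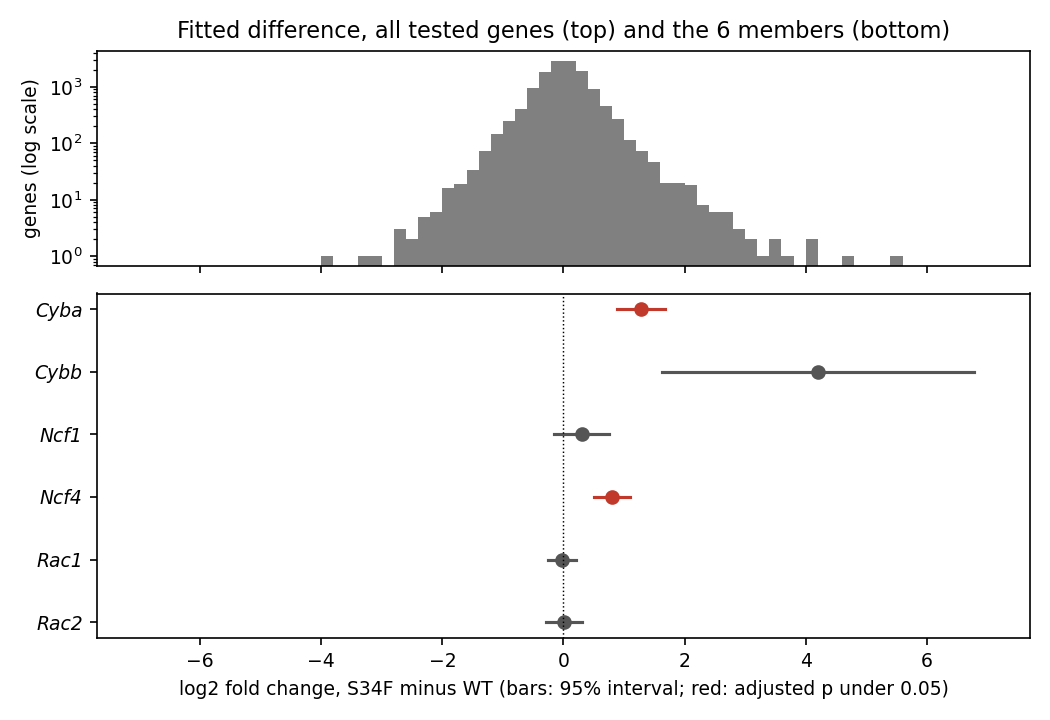
Fitted log2 fold changes of S34F against WT: a histogram of the 13444 genes tested (top, log count axis) and the 6 subunit genes with 95% intervals (bottom, red where the adjusted p is under 0.05). The intervals of Cyba and Ncf4 lie above 0, that of Cybb runs from 1.62 to 6.78, and those of Rac1 and Rac2 are short and hold 0.

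The membrane chains differed from each other in both level and evenness. Cyba (ENSMUSG00000006519, mm10 chromosome 8, 122424776 to 122432930, minus strand, 6 exons in the longest transcript) had 209.9, 273 and 201 CPM in the S34F libraries. In the WT libraries it was at 116, 80.3 and 87.0 CPM. The lowest S34F library lay well above the highest WT library, and the group means were 228 ± 39.1 and 94.3 ± 18.7 CPM (SD, n = 3 per group). The fitted rise was 2.42-fold (95% interval 1.84 to 3.18), a log2 fold change of 1.27 ± 0.17 (SE, edgeR adjusted p = 0.0170).

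The size of the Cyba rise held in every alternative run, with log2 fold changes of 1.10 to 1.45, while its call held in 9 of 14. Leaving out S34F replicate 1 gave an edgeR adjusted p of 0.0696, S34F replicate 3 one of 0.0526, WT replicate 2 one of 0.0720 and WT replicate 3 one of 0.0707, within a range of 5.05e-09 to 0.0728 over the alternatives. The log2 fold changes in these fits were 1.32, 1.36, 1.16 and 1.22. With WT replicates 2 and 3 summed into 1 library it was 1.19 (adjusted p = 0.0728). The longest Cyba transcript has a GC content of 59.3%, and with the trend of each library with GC content removed the log2 fold change was 1.10 and the call held (adjusted p = 0.0230).

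Cybb (ENSMUSG00000015340, chromosome X, 9435252 to 9487771, minus strand, 13 exons) had the widest spread of the 6 genes. Its counts were 275, 356 and 10 in the S34F libraries, or 15.5, 18.5 and 0.597 CPM. In the WT libraries its counts were 20, 8 and 4, or 1.22, 0.471 and 0.216 CPM. S34F replicates 1 and 2 thus lay far above all other libraries, while S34F replicate 3 lay inside the WT range. The exact 95% Poisson interval of S34F replicate 3, for counting error only, was 0.286 to 1.10 CPM, which overlaps the intervals of all WT libraries and ends below the 13.7 CPM at which that of S34F replicate 1 begins.

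The means of Cybb were 11.5 ± 9.60 CPM in S34F and 0.635 ± 0.520 CPM in WT (SD, n = 3 per group). The log2 fold change of 4.20 ± 1.12 (SE) did not pass (edgeR adjusted p = 0.0941, unadjusted p = 0.00562), and the groups overlapped. Without S34F replicate 3 it was 4.75 and passed (adjusted p = 0.0307), and DESeq2 on all libraries also called it (4.19, adjusted p = 0.0211). Over its 14 alternatives the adjusted p ran from 0.00608 to 0.404, and 3 of them called it.

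Markers of macrophages, which express Cybb strongly, were read in the same libraries. Of 10 such genes 3 could be tested and 0 passed (edgeR; 2 at an unadjusted p under 0.05, DESeq2 1, limma-voom 1), with a summed level of 260 to 350 CPM in S34F and 229 to 243 CPM in WT. C1qa, C1qb and Msr1 had 0 counts in all libraries. Csf1r, the receptor of macrophage colony-stimulating factor, was at 16.0, 34.9 and 4.84 CPM in the S34F libraries and 10.3, 4.54 and 5.68 CPM in the WT libraries, with S34F replicate 3 inside the WT range as for Cybb. Cd68, a lysosomal protein of macrophages and the marker with the smallest p, was at 32.4, 32.2 and 32.0 CPM in the S34F libraries and 19.9, 7.54 and 7.46 CPM in the WT libraries, with S34F replicate 3 above all of WT (edgeR adjusted p = 0.0695, not passing). Adgre1, the third that could be tested, was at 232, 282 and 223 CPM against 198, 230.1 and 222 CPM, and its groups overlapped. Of 11 genes of mature neutrophils 4 could be tested, and 1, Lcn2, rose. The summed level of the neutrophil genes was 387 to 674 CPM in S34F and 83.1 to 107 CPM in WT, nearly all of it Lcn2, and Retnlg had 0 counts. The part of these markers in the Cyba, Ncf4 and Cybb values was not tested, and in bulk RNA more cells of a type and more RNA per cell cannot be told apart.

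Within each library, Cyba had far more counts than Cybb. The ratio was 13.5, 14.7 and 336 in the S34F libraries and 95, 170.4 and 402.5 in the WT libraries, so S34F replicates 1 and 2 stood below all others. The mean log2 ratio was lower by 2.20 in S34F (exact permutation test, two-sided, p = 0.30, adjusted p = 0.60 over 2 ratios tested), and 0.10 is the smallest p that 3 libraries against 3 allow.

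The RefSeq promoter table for the build GRCm38.p6, the assembly of mm10, held 3 of the 6 genes, Cyba, Cybb and Ncf1. Each sequence runs from 250 bases before to 50 bases after the transcript start. They are shown as a description, and no link between these letters and the levels of the genes was tested. Capitals mark matches, on either strand, to GAGGAA (a motif of PU.1, an ETS factor), TTNNGNAA (C/EBP), TGACNNNGC (NRF2) or the IRF motif (GAAA, 2 free bases, GAAA).
Cyba, chr8:122432891-122433190, minus strand: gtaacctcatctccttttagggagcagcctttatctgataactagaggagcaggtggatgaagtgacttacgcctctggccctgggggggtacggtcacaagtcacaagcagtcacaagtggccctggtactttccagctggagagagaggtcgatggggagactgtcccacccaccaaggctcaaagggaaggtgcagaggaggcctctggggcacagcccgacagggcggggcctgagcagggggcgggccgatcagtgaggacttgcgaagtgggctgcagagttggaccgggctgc
Cybb, chrX:9469275-9469574, minus strand: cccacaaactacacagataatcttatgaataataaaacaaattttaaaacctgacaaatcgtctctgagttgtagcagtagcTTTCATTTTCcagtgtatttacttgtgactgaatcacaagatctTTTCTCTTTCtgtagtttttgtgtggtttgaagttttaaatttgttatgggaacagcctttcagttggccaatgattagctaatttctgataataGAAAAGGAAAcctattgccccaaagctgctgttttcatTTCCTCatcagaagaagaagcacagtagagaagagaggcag
Ncf1, chr5:134229576-134229875, minus strand: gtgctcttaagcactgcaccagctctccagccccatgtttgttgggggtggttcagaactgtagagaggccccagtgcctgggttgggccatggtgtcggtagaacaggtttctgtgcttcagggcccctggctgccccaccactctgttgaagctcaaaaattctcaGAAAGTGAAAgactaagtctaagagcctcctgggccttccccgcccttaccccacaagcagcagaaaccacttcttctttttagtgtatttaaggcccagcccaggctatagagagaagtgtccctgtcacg

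The Cybb window held the IRF letters 3 times, starting 168, 124 and 29 bases before the start, and the GAGGAA letters once, on the opposite strand after the start. This RefSeq start lies inside the annotated span of Cybb, 9435252 to 9487771, which covers 5 transcripts. Other starts of Cybb were not read. At least 1 IRF match was present in 3.44% of 32851 promoter windows and at least 3 in 0.0152%, while GAGGAA was present in 28.3%. The cut of 3 equals the number found in the Cybb window, so the 0.0152% is a description and no test. The Ncf1 window held the IRF letters once, 82 bases before the start. The Cyba window held none of the 4 motifs as written. It does hold the shorter GGAA, the core shared by ETS factors, which was not searched for. TTNNGNAA was in 40.7% and TGACNNNGC in 12.4% of all windows. The windows also differed in GC content, at 60.7% for Cyba, 35.3% for Cybb and 54.0% for Ncf1. These matches describe letters in a window and show no binding.

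Among the cytosolic subunits, Ncf4 rose and Ncf1 did not pass. Ncf4 (ENSMUSG00000071715, chromosome 15, 78244801 to 78262580, plus strand, 10 exons) was at 68.7, 80.8 and 75.9 CPM in the S34F libraries. It was at 49.8, 38.8 and 41.1 CPM in the WT libraries, so the groups did not overlap and, unlike Cybb, S34F replicate 3 lay between the other S34F libraries. The fitted rise was 1.74-fold (95% interval 1.41 to 2.13), from 43.3 ± 5.79 to 75.1 ± 6.05 CPM (SD, n = 3 per group), a log2 fold change of 0.80 ± 0.13 (SE, edgeR adjusted p = 0.0276).

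The call of Ncf4 was lost without the same libraries as that of Cyba. Leaving out S34F replicate 1 gave an edgeR adjusted p of 0.0837, S34F replicate 3 one of 0.0923, WT replicate 2 one of 0.136 and WT replicate 3 one of 0.137, within 5.32e-05 to 0.137 over 14 alternatives. The log2 fold changes in these 4 fits were 0.85, 0.79, 0.72 and 0.76. With WT replicates 2 and 3 summed it was 0.74 (adjusted p = 0.130).

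Ncf1 (ENSMUSG00000015950, chromosome 5, 134220053 to 134229625, minus strand, 10 exons) was at 284, 342 and 186 CPM in the S34F libraries. It was at 241, 210.5 and 208.5 CPM in the WT libraries. S34F replicates 1 and 2 lay above all WT libraries and S34F replicate 3 below all of them, the same order of S34F libraries as for Cybb but over a much smaller range. The log2 fold change of 0.30 ± 0.20 (SE) did not pass (edgeR adjusted p = 0.418), and its 95% interval, in folds, ran from 0.896 to 1.69. Of its exon bases 11.1% overlap Gtf2ird2 on the opposite strand, whose mean levels were 46.8 and 37.4 CPM in S34F and WT; the strand setting of the counting is not given in the sources used here.

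Rac1 and Rac2 are the small GTPases that switch the assembled oxidase on, Rac1 in most tissues and Rac2 mainly in blood cells. Rac1 (ENSMUSG00000001847, chromosome 5, 143503634 to 143528036, minus strand, 6 exons) varied least of the 6 genes over the 6 libraries, at 628, 601 and 599.7 CPM in the S34F libraries and 609, 612 and 635 CPM in the WT libraries. The groups overlapped, and the log2 fold change of -0.02 ± 0.10 (SE, edgeR adjusted p = 0.925) had a 95% interval of 0.839 to 1.16 in folds. Daglb on the opposite strand overlaps 51.4% of the Rac1 exon bases, and its mean levels were 12.1 CPM in S34F and 12.7 CPM in WT. The strand setting of the counting is not given, so whether reads in this overlap were counted for Rac1 is not known.

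Rac2 (ENSMUSG00000033220, chromosome 15, 78559167 to 78572783, minus strand, 7 exons) was at 245, 294 and 216 CPM in the S34F libraries. In the WT libraries it was at 255, 247 and 251 CPM, in the middle of the S34F range. The log2 fold change was 0.01 ± 0.13 (SE, edgeR adjusted p = 0.985), with a 95% interval of 0.818 to 1.23 in folds. S34F replicate 2 was the highest library and S34F replicate 3 the lowest, so the S34F libraries spread more (coefficient of variation 15.6%) than the WT libraries (1.55%), of which replicates 2 and 3 are the close pair. The ratio of Rac2 to Rac1 counts was 0.390, 0.490 and 0.361 in the S34F libraries and 0.418, 0.404 and 0.395 in the WT libraries, with no difference in mean beyond their spread (mean log2 difference 0.02, exact permutation test, two-sided, p = 1.0).

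Rac1 and Rac2 shared few stretches with other genes: of the 50-base words in their longest transcripts, 0.0% and 0.50% occurred in transcripts of another gene. The shares were 0.25% for Ncf1 and 0.0% for Cyba, Cybb and Ncf4. Ncf4 and Rac2 lie on the same chromosome, 296.6 kb apart, and between them Csf2rb2, the gene nearest to Ncf4 on that side, had a log2 fold change of 0.28 that did not pass (edgeR adjusted p = 0.335). Of the 12 genes that flank the 6 subunit genes, 5 could be tested and 0 passed (edgeR; 0 at an unadjusted p under 0.05, DESeq2 0, limma-voom 0). For Mvd, 0.671 kb from Cyba, the log2 fold change was 0.14 (edgeR adjusted p = 0.762).

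**Figure D3:**
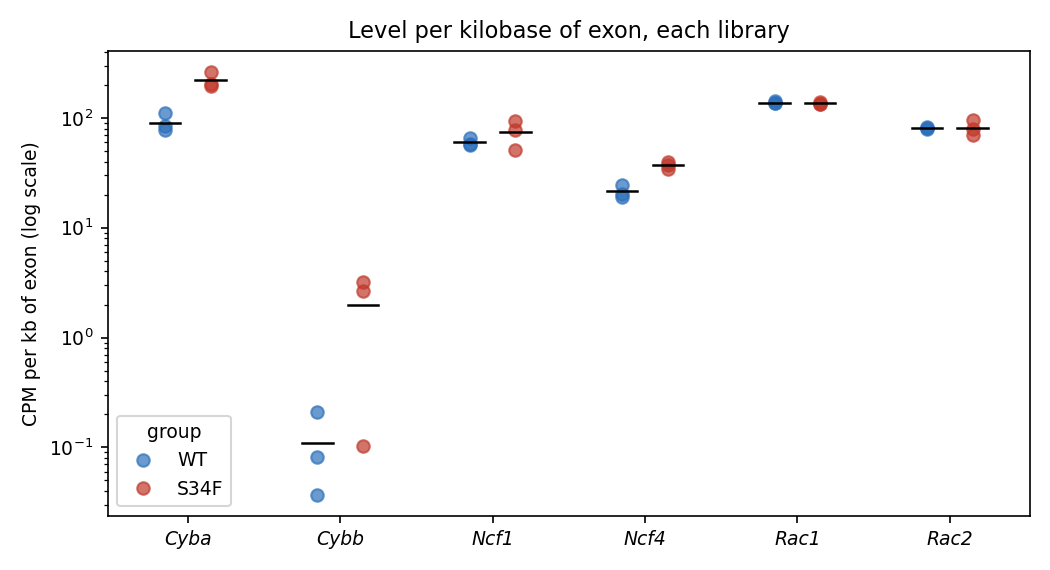
Level of each subunit gene in CPM per kilobase of exon (log axis) in each WT (blue) and S34F (red) library, with the mean of 3 libraries as a line. Cybb lies far below the other genes in all libraries, and Cyba passes from below Rac1 in WT to above it in S34F.

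Per kilobase of exon, the order of the levels differed between the groups. The values of Rac1 and Ncf1 may miss reads where other genes overlap their exons, which was not tested. In WT cells Rac1 was highest at 138 ± 3.08 CPM per kb (SD, n = 3), followed by Cyba at 90.8 ± 18.02, Rac2 at 80.8 ± 1.25, Ncf1 at 60.1 ± 5.00, Ncf4 at 21.4 ± 2.87 and Cybb at 0.109 ± 0.0895. Cyba and Rac2 did not differ beyond their spread. In S34F cells Cyba was highest at 219 ± 37.7 CPM per kb, followed by Rac1 at 136 ± 3.49, Rac2 at 81.2 ± 12.7, Ncf1 at 73.9 ± 21.5, Ncf4 at 37.2 ± 2.997 and Cybb at 1.99 ± 1.65. Rac2 and Ncf1 overlapped there. With the length of the longest transcript instead of the exon union, Cyba in WT was at 127 ± 25.2 CPM per kb and overlapped Rac1 at 149 ± 3.33, whereas in S34F it stayed above Rac1, at 306 ± 52.6 against 147 ± 3.77. By that length Ncf1 in S34F lay above Rac2, at 94.0 ± 27.4 against 82.9 ± 13.0 CPM per kb, still overlapping it.

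For each subunit gene the 3 genes with the most similar levels over the 6 libraries were picked by Pearson's r of log2 CPM among 9800 genes, as a description. For Cyba these were Cd82, a tetraspanin, Slfn2, and Atp6v0b, a subunit of the vacuolar proton pump, with r of 0.995, 0.993 and 0.990. Cd82 was also among those of Ncf4 (r = 0.992), with Tex264 (0.994) and Emilin2 (0.993). For Cybb they were Mpeg1, a pore-forming protein of macrophages, Rnf7 and the glycolytic enzyme gene Tpi1, with r of 0.992, 0.990 and 0.989. Mpeg1 was at 43.9, 44.3 and 9.44 CPM in the S34F libraries and 14.2, 6.89 and 6.70 CPM in the WT libraries, again with S34F replicate 3 inside the WT range. For Ncf1 they were Tnfrsf1b (0.997), Tyms (0.991) and Irak3 (0.981), for Rac1 Mettl18 (0.969), Atpif1 (0.962) and Was (0.951), and for Rac2 Serpina3g (0.995), Helb (0.985) and Tnfaip2 (0.983). The 6 libraries fall into 2 groups with a close WT pair, and even Rac1, which hardly varied, had genes at such values, so the coefficients rank genes and carry no test.

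Around the oxidase, 107 genes of 7 lists were read in the same fit. Of the 82 that could be tested, 7 rose, 1 fell and 74 did not pass, a share called of 9.76% against 2.18% of all genes tested. Only Tyrobp and Fcer1g of the 8 stayed called with WT replicates 2 and 3 summed (2.41% of these genes against 0.145% of all), without S34F replicate 1 (2.44% against 0.145%), without WT replicate 2 (2.41% against 0.138%) and without WT replicate 3 (2.41% against 0.160%). Leaving out S34F replicate 2 gave 5 calls (6.1% against 2.46% of all) and S34F replicate 3 gave 4 (4.82% against 0.362%). Without WT replicate 1 there were 12 (14.5% against 8.51%), and with the GC trend removed 5 (6.1% against 1.21%). The lists were chosen with earlier results of these data known.

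**Figure D4:**
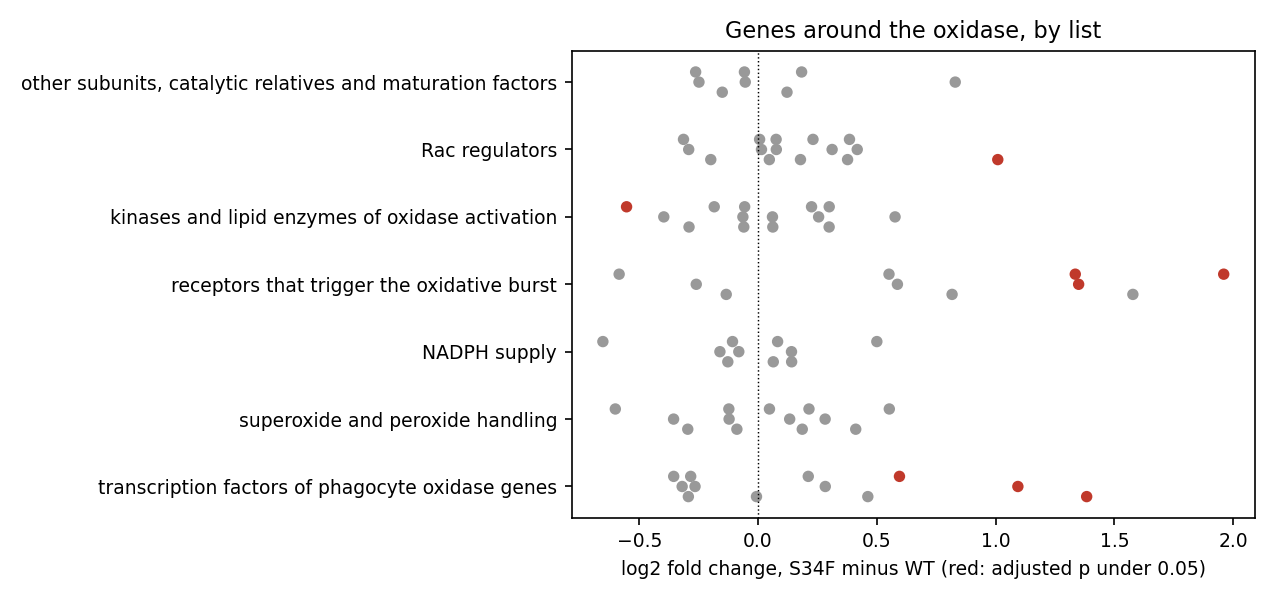
Fitted log2 fold changes of S34F against WT for the tested genes of 7 lists around the oxidase; each point is a gene, red where the adjusted p is under 0.05. The called genes are Vav2, Pik3r4, Tyrobp, Fcer1g, Fcgr1, Spi1, Cebpb and Cebpd, and the lists of NADPH supply, peroxide handling and other subunits hold none.

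Among other subunits, catalytic relatives and maturation factors, 0 of 8 tested genes passed (edgeR; 0 at an unadjusted p under 0.05, DESeq2 0, limma-voom 0), and 7 of the 15 had 0 counts in all libraries. Their median log2 fold change was -0.06. Cybc1, a chaperone that gp91phox and p22phox need to mature, had the smallest p, with a log2 fold change of -0.25 that did not pass (edgeR adjusted p = 0.274). It was at 53.3, 67.0 and 59.8 CPM in the S34F libraries and 66.1, 76.1 and 71.8 CPM in the WT libraries, so the groups overlapped. Nox4, Duox1 and Duox2, catalytic chains of related oxidases, had 0 counts. Nox1, another such chain, was at 2.43, 19.6 and 1.61 CPM in the S34F libraries and 3.65, 4.48 and 5.19 CPM in the WT libraries. Its groups overlapped and it did not pass (edgeR adjusted p = 0.586).

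Among 15 tested regulators of Rac, which load it with GTP, hold it in the cytosol or turn it off, 1 rose and 14 did not pass (median log2 fold change 0.08). Vav2, an exchange factor for Rac, was at 43.8, 40.8 and 30.3 CPM in the S34F libraries and 18.5, 19.6 and 19.0 CPM in the WT libraries. Its log2 fold change was 1.01 (edgeR adjusted p = 0.0257), and no WT library reached the lowest S34F library. It lost its call with WT replicates 2 and 3 summed (adjusted p = 0.110) and without S34F replicate 1, WT replicate 2 or WT replicate 3 (0.0999, 0.114 and 0.120), within 8.51e-06 to 0.120 over 14 alternatives. Among 14 tested kinases and lipid enzymes of oxidase activation 1 fell and 13 did not pass (median 0.00). The gene that fell was Pik3r4, the regulatory partner of the kinase that makes phosphatidylinositol 3-phosphate, at 34.6, 38.1 and 41.0 CPM in the S34F libraries and 56.6, 55.8 and 54.4 CPM in the WT libraries. Its log2 fold change of -0.55 passed narrowly (adjusted p = 0.0488), and leaving out any library but WT replicate 1 ended the call, with adjusted p-values of 0.149, 0.0691 and 0.0931 without S34F replicates 1 to 3 and 0.216 and 0.206 without WT replicates 2 and 3. Over 14 alternatives they ran from 0.00411 to 0.216.

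Among 10 tested receptors and adaptors that trigger the oxidative burst, 3 rose and 7 did not pass (median log2 fold change 0.70). Tyrobp, an adaptor with an activating motif, was at 64.0, 52.6 and 57.9 CPM in the S34F libraries and 14.3, 16.1 and 14.4 CPM in the WT libraries. Fcer1g, the adaptor chain of Fc receptors, was at 69.2, 60.9 and 66.2 CPM against 24.9, 24.8 and 28.1 CPM. Both were called in all 14 alternatives, and in both S34F replicate 3 lay between the other S34F libraries. Fcgr1, the high-affinity IgG receptor that signals through Fcer1g, was at 60.1, 33.6 and 49.2 CPM in the S34F libraries and 13.7, 22.6 and 19.8 CPM in the WT libraries. Its log2 fold change was 1.35 (edgeR adjusted p = 0.0355). The Fcgr1 call ended in 7 of 14 alternatives, among them those leaving out S34F replicate 1 or 3 or WT replicate 2 or 3 (adjusted p = 0.131, 0.112, 0.0907 and 0.124) in a range of 8.57e-06 to 0.131.

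Of the genes that supply NADPH, 0 of 10 tested passed (edgeR; 1 at an unadjusted p under 0.05, DESeq2 1, limma-voom 0; median log2 fold change -0.01). Pgls, the lactonase of the pentose phosphate pathway, had the smallest p, with a log2 fold change of 0.50 (edgeR adjusted p = 0.0722), at 143, 114 and 123 CPM in the S34F libraries and 96.4, 88.7 and 83.4 CPM in the WT libraries. Of the genes that handle superoxide and peroxide, 0 of 13 tested passed (edgeR; 2 at an unadjusted p under 0.05, DESeq2 0, limma-voom 0; median 0.05). Gpx1, a glutathione peroxidase, had the smallest p there, with a log2 fold change of -0.36 (edgeR adjusted p = 0.167).

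Of 12 tested genes of transcription factors known to act on phagocyte oxidase genes, 3 rose and 9 did not pass (median log2 fold change 0.10). At an unadjusted edgeR p under 0.05 there were 6, and 6 of the 12 log2 fold changes were positive. Runx1 and Crebbp were lower in S34F, at -0.29 and -0.35, and did not pass (edgeR adjusted p = 0.187 and 0.223). Spi1, which encodes PU.1, was at 217, 194 and 170.5 CPM in the S34F libraries and 119.9, 131 and 134 CPM in the WT libraries. Cebpb was at 323, 336 and 238 CPM in the S34F libraries and 188, 114 and 119 CPM in the WT libraries, and Cebpd at 36.7, 37.3 and 23.6 CPM against 14.9, 9.90 and 12.7 CPM. In Spi1, Cebpb and Cebpd S34F replicate 3 was the lowest S34F library and still lay above the WT libraries. The log2 fold changes were 0.60, 1.09 and 1.38 (edgeR adjusted p = 0.0491, 0.0438 and 0.0267). Spi1 lost its call in the fit without GC trend (0.42, adjusted p = 0.131), as did Cebpb (0.84, adjusted p = 0.0668).

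All 3 of these calls were lost when certain single libraries were left out. The log2 fold changes then stayed at 0.50 to 0.68 for Spi1, 0.96 to 1.37 for Cebpb and 1.24 to 1.57 for Cebpd. Over all genes, 293 calls fell to 20, 19 and 22 without S34F replicate 1, WT replicate 2 and WT replicate 3. Without S34F replicate 1, WT replicate 2 and WT replicate 3 the adjusted p-values were 0.149, 0.205 and 0.188 for Spi1, 0.160, 0.179 and 0.185 for Cebpb and 0.114, 0.114 and 0.110 for Cebpd. Spi1 and Cebpb also lost their calls without S34F replicate 2 (0.0691 and 0.0754) and S34F replicate 3 (0.0762 and 0.0830). Over 14 alternatives the ranges were 0.00177 to 0.205 for Spi1, 5.91e-05 to 0.185 for Cebpb and 7.24e-07 to 0.114 for Cebpd. Irf8, the IRF factor that acts on CYBB together with PU.1, had at most 0.0541 CPM in any library, 1 count, and Cebpa had 0 counts. Irf1 was at 13.6, 30.8 and 25.02 CPM in the S34F libraries and 27.1, 30.3 and 29.3 CPM in the WT libraries. Irf2 was at 23.5, 33.96 and 23.1 CPM against 28.3, 36.3 and 32.3 CPM, and the groups overlapped for both genes.

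**Figure D5:**
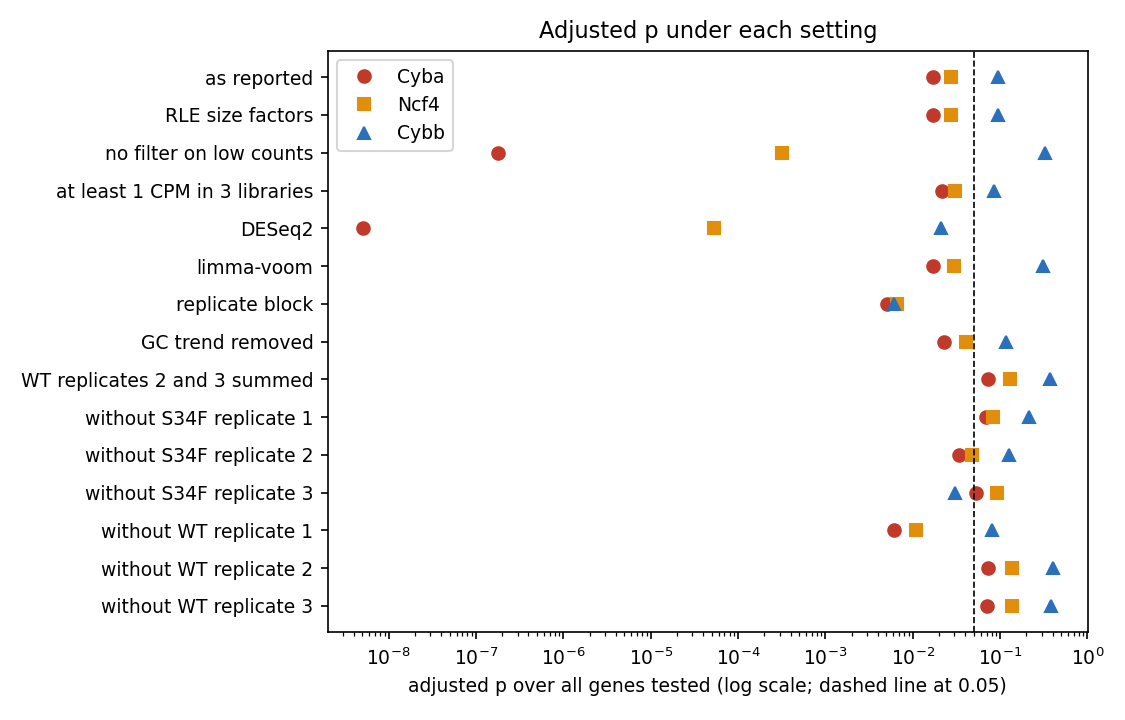
Adjusted p of Cyba, Ncf4 and Cybb (log axis, dashed line at 0.05) in the fit reported and in 14 alternatives, one per row. Cyba and Ncf4 pass in 9 alternatives each and Cybb in 3.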

How the data were processed

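Per the labels' protocols, RNA went into libraries of a directional mRNA kit. The authors deposited a table of raw counts, whole numbers of reads for each Ensembl gene and library, and these were used unchanged. The submitters' processing notes name the aligner HISAT2, the counter featureCounts and the build mm10. Their versions, the annotation release and the strand setting are not given there. Sample titles gave the groups and replicate numbers, and column names were matched to them.

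The test was edgeR 4.0.16 (R 4.3.3) with TMM factors and filterByExpr, by its robust quasi-likelihood F test on genotype alone, two-sided, with Benjamini-Hochberg adjustment at 0.05 over all genes tested. An SE is the fitted log2 fold change over the square root of its F value, and 95% intervals use the degrees of freedom of that test. Count ratios within libraries were compared by an exact permutation test. The procedure was tested on simulated counts.

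Alternatives were DESeq2 1.42.0, limma-voom (limma 3.58.1), RLE factors, no filter, a filter at 1 CPM in at least 3 libraries, a replicate block, a loess correction (span 0.5) for GC content, WT replicates 2 and 3 summed, and each library left out. The longest transcript as length was added after seeing the data. Coordinates, exon lengths and GC content came from GENCODE M21.

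The members, lists and tests were chosen with earlier results of these data known. Named genes were the 6 members, up to 4 changed genes with the smallest p from each other list (or the smallest p where none changed), the 3 genes most alike each member among those with at least 2 CPM on average and no predicted symbol, and markers and list genes at or near 0. Csf1r, Adgre1, Nox1, Irf1, Irf2, Irf8, Mpeg1, Mvd, Csf2rb2, Gtf2ird2 and Daglb got values for their role, location or pattern, after these had been seen. So did Ngp, S100a8, S100a9, Runx1 and Crebbp. Plots used matplotlib 3.10.9 and Python 3.11.15.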

Additional observations from a re-analysis of the deposited data

How the results depend on the processing

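In WT Cybb had only 4 to 20 counts, and it passed without S34F replicate 3 (edgeR adjusted p = 0.0307), its SE then being 0.50 instead of 1.12. The number of genes changed was 293, with 763 without a count filter, 1080 in DESeq2, 1418 with the replicate block, 163 with the GC trend removed, 20 with WT replicates 2 and 3 summed, and 19 to 1177 with 1 library left out. Of the genes around the oxidase, a count repeated under the alternatives after seeing the data, 8 were called, with 14 without a count filter and with the replicate block and 13 in DESeq2. In these 3 settings the shares were 15.1%, 17.1% and 14%, against 3.12%, 10.5% and 4.41% of all genes. The number of oxidase genes called was 2, with 3 in DESeq2 and with the replicate block, 0 with WT replicates 2 and 3 summed, and 0 to 2 with 1 library left out.

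Summing WT replicates 2 and 3 ended the calls of Cyba (log2 fold change 1.19) and Ncf4 (0.74), which had 1.13 to 1.45 and 0.72 to 0.91 with 1 library left out. Cybb gained a call in DESeq2 (4.19) and had 3.68 to 5.07 with 1 library left out. Whether replicate numbers pair the samples was not settled. The deviations of same-numbered libraries correlated at 0.332, 0.159 and 0.0719. S34F replicates 1 and 2 correlated best with the WT library of their own number, and S34F replicate 3 with WT replicate 2 (0.0801). WT replicates 2 and 3 are too alike to tell these numbers apart, as S34F replicate 2 correlated with WT replicate 3 at 0.153. With the replicate block Cyba was at 1.28, Ncf4 at 0.80, Cybb at 4.001 with a call (adjusted p = 0.00608), Ncf1 at 0.26, Rac1 at -0.02 and Rac2 at -0.01.

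Rac2, near 0 throughout, turned sign with at least 1 CPM in 3 libraries (-0.0026), limma-voom (-0.0061), the replicate block (-0.0055), the GC correction (-0.088) and WT replicates 2 and 3 summed (-0.0014), and lay between -0.12 and 0.11 with 1 library left out. The mean log2 Rac2 to Rac1 ratio differed by -0.11 to 0.11 with 1 library left out. The cause of these changes was not tested, beyond the fewer libraries of the last 2 kinds of fit.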
